A study of Mus musculus with 2 samples.

Results

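The transcripts described here encode 8 general pluripotency factors, Pou5f1 (OCT4), Sox2, Sall4, Utf1, Dppa2, Dppa4, Dppa5a and Rex2. They were chosen by name as factors that naive and primed pluripotent cells share, and all 8 were found among the 43629 genes listed in both libraries. RNA was sequenced from *Dicer*_KO mouse embryonic stem cells (mESCs), derived from the E14TG2a line on a 129/Ola background, in 2 libraries. Replicate 1 was harvested at passage 7 and replicate 2 at passage 4. The labels give both libraries the genotype Dicer knockout and the tissue of origin blastocyst, and do not say which deletion of *Dicer1* each library carries. Both lines were made by paired CRISPR/Cas9 cutting, which removes the stretch between a pair of guide sites, and were grown from single sorted cells, so that each is 1 clone. Routine culture was in serum with the cytokine LIF. The RNA was polyA-selected. WT libraries were not analysed here, so that levels and their spread are described within *Dicer*_KO mESCs, and no test between genotypes was made. With 1 library at each passage, the passage, the clone and the library cannot be told apart, and a difference between the libraries has no replicate check.

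OCT4 and SOX2 bind DNA side by side at composite sites and hold the network of the pluripotent cell together. OCT4 is needed for the cells of the inner cell mass to be pluripotent. SALL4, UTF1 and the developmental pluripotency associated (DPPA) proteins work on chromatin or RNA in the same cells, and their genes are among those shut off when mESCs differentiate. DICER cuts precursor hairpins into mature miRNAs, several families of which act on the exit from pluripotency.

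The libraries held 41710122 and 41566184 counts over genes, so that depth was nearly equal. Levels are given as CPM, the counts relative to a library total of 1e6, after scaling by the trimmed mean of M values (TMM), and levels between genes as CPM per kb of exon. Each ± is the SD over both libraries (n = 2), and 3 counts, taken as the limit of detection, were worth 0.0691 CPM in replicate 1 and 0.0752 CPM in replicate 2. *Dicer1*, the targeted gene, gave 1343 counts in replicate 1 and 1510 in replicate 2 over the whole gene, and this cannot check the genotype because reads outside the deleted part are included. Summed CPM of 8 mESC markers was 3669 in replicate 1 and 3110 in replicate 2, led by *Nanog*. Markers of other lineages summed to 17.4 and 11.0 CPM for primitive endoderm, 46.9 and 54.7 for neuroectoderm, 8.29 and 4.46 for mesoderm and 19.6 and 16.0 for fibroblasts. The trophectoderm list summed to 360 CPM in replicate 1 and 60.8 in replicate 2, nearly all of it from the keratin genes *Krt8* (8004 and 1370 counts) and *Krt18* (7162 and 880), which lie on chromosome 15. Genes of that chromosome, which holds none of the 8 factors, had a median log2 ratio of replicate 1 over replicate 2 of 0.59 over 683 genes. *Krt8* was at 2.42 and *Krt18* at 2.90. On other chromosomes, *Elf5* (2.45, 70 and 11 counts), *Gata3* (1.71, 52 and 14) and *Eomes* (1.02, 334 and 151) were also higher in replicate 1. Any part of the chromosome in these ratios was not tested. In bulk RNA, fewer cells of a type and less RNA per cell cannot be told apart.

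The 8 factors covered a wide range of levels. The order of the mean level per kb was *Dppa5a*, *Pou5f1*, *Sox2*, *Dppa4*, *Utf1*, *Dppa2*, *Sall4* and *Rex2*. *Dppa5a*, *Pou5f1* and *Sox2* stood at the top in this order, and *Rex2* at the bottom, in both libraries. *Dppa4* and *Utf1* overlapped, with a *Dppa4* level per kb of 0.784 times that of *Utf1* in replicate 1 and 1.28 times in replicate 2. *Dppa2* and *Sall4* overlapped as well, at a ratio of 1.27 in replicate 1 and 1.02 in replicate 2. The values of the other neighbours in the order did not overlap.

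**Figure D1:**
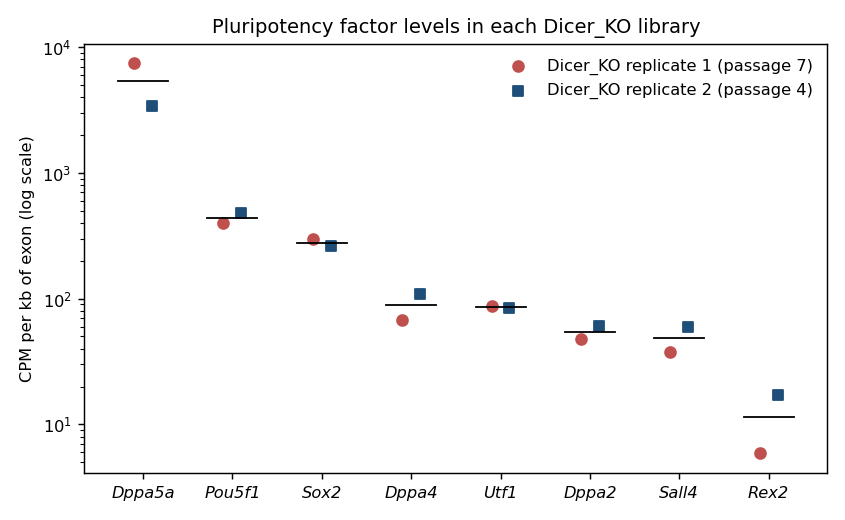
Level of each pluripotency factor in CPM per kb of exon on a log scale. Circles are *Dicer*_KO replicate 1 (passage 7), squares replicate 2 (passage 4) and bars the mean of both; *Dppa5a* lies above all others, at 7433 and 3434, and *Rex2* lies lowest, at 5.87 and 17.2.

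Together the 8 genes took 290160 counts in replicate 1 and 182554 in replicate 2, which is 0.696% and 0.439% of all gene counts. *Dppa5a* alone accounted for 68.9% of the members' counts in replicate 1 and 46.5% in replicate 2. Without it, the other 7 genes summed to 2079 CPM in replicate 1 and 2448 CPM in replicate 2. The sum of the 8 was thus higher in replicate 1 and the sum of the 7 higher in replicate 2.

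The core pair followed *Dppa5a* in level, and both genes changed by less than 1.5-fold between the libraries with TMM scaling. *Pou5f1* (ENSMUSG00000024406), which encodes the POU domain factor OCT4, spans chr17:35506018-35510772 on the plus strand of GRCm38. It gave 39069 counts in replicate 1 and 43025 in replicate 2, or 899 and 1078 CPM. On the length scale this was 400 and 480 CPM per kb (440 ± 56.2). Replicate 2 was the higher library, by 1.20-fold. As log2 of replicate 1 over replicate 2, the ratio used throughout, this was -0.26 with TMM scaling, with a 95% counting interval from -0.28 to -0.24, and became 0.28 when the libraries were scaled to their *Gapdh* counts. *Pou5f1* had rank 30 of the 21551 listed protein-coding genes in mean level per kb. The genes next above it were *Rpl41*, a ribosomal protein gene, at 459 CPM per kb, and *Atp5a1*, an ATP synthase subunit gene, at 446. Those next below were *Tubb5*, a tubulin gene, at 435, and *Eef1b2*, a translation elongation factor gene, at 433.

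*Sox2* (ENSMUSG00000074637), the HMG box partner of OCT4, is a gene of a single exon at chr3:34650405-34652461 on the plus strand, inside the span of the non-coding gene *Sox2ot*. It gave 26499 counts in replicate 1 and 21353 in replicate 2, or 610 and 535 CPM. Per kb this came to 297 and 260 CPM (278 ± 25.8, rank 68). Here replicate 1 was the higher library, by 1.14-fold (log2 ratio 0.19, interval 0.16 to 0.22). *Pou5f1* was therefore 1.35 times *Sox2* per kb in replicate 1 and 1.84 times in replicate 2. Such a ratio within a library does not depend on the scaling between libraries. The counting intervals, 1.33 to 1.37 and 1.81 to 1.87, did not overlap. Per kb of the longest coding transcript, which is shorter for *Pou5f1* than the union of its exons, the mean ratio was 2.63 instead of 1.60, so the lead of *Pou5f1* is uncertain in size.

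Both genes of the core pair were followed in the study by RT-qPCR, and the primers are printed to show which piece of each transcript that assay reads. They are given 5′ to 3′ in lower case, with no part marked.
Pou5f1 forward: caactcccgaggagtccca
Pou5f1 reverse: ctgggtgtaccccaaggtga
Sox2 forward: cacagatgcaaccgatgca
Sox2 reverse: ggtgccctgctgcgagta
The *Pou5f1* pair spans bases 453 to 553 of the transcript of 1362 bases, a product of 101 bases. The *Sox2* pair spans bases 592 to 713 of 2057, a product of 122 bases. No transcript of another gene held both primers of a pair, while *Gm19553* and *Gm5712* held at least 1 of the *Pou5f1* primers. *Gm19553* lies antisense to *Pou5f1*, shares 317 bp of its exons (14.1%) and had 68 counts in replicate 1 and 52 in replicate 2. Reads on overlapping genes were left out by the authors, and whether counting used the strand is not given in the sources used here.

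The chromatin factors *Sall4* and *Utf1* differed from each other in how far the libraries lay apart. *Sall4* (ENSMUSG00000027547, chr2:168748332-168767943, minus strand) encodes a zinc finger protein that recruits the NuRD complex, a chromatin remodeller with deacetylase activity. It gave 8997 counts in replicate 1 and 13144 in replicate 2, or 207 and 329 CPM, and the mean level was 48.5 ± 15.6 CPM per kb. Replicate 2 was higher by 1.59-fold (log2 ratio -0.67, interval -0.71 to -0.63). *Pou5f1* exceeded *Sall4* 10.7 times per kb in replicate 1 and 8.06 times in replicate 2, and *Sox2* exceeded it 7.93 and 4.37 times. *Gm14261* overlaps 526 bp of *Sall4* exons on the opposite strand and held only 5 and 7 counts.

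*Utf1* (ENSMUSG00000047751, chr7:139943789-139945112, plus strand), a chromatin-bound protein of undifferentiated cells, had the ratio nearest 0 of the 8 with TMM scaling, though not under total counts (0.16) or scaled to *Gapdh* (0.58). It gave 4639 counts in replicate 1 and 4137 in replicate 2, or 107 and 104 CPM, and 85.8 ± 1.81 CPM per kb in the mean. The log2 ratio was 0.04, and its interval, -0.02 to 0.10, included 0. It was the only one of the 8 genes of which this was true with TMM scaling. Relative to *Pou5f1*, its level per kb was 0.218 in replicate 1 and 0.176 in replicate 2.

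*Dppa2* and *Dppa4* are neighbours on chromosome 16, and their proteins, which carry SAP domains, bind chromatin as a pair and act upstream of *Dux* and the two-cell program. *Dppa2* (ENSMUSG00000072419) spans chr16:48303908-48319723 and *Dppa4* (ENSMUSG00000058550) chr16:48283733-48294237, both on the plus strand. *Dppa2* gave 5060 counts in replicate 1 and 5902 in replicate 2, or 116 and 148 CPM. *Dppa4* gave 4927 and 7180 counts, or 113 and 180 CPM. Both were higher in replicate 2 with TMM scaling, *Dppa2* by 1.27-fold (log2 ratio -0.34, interval -0.40 to -0.29; 0.20 when scaled to *Gapdh*) and *Dppa4* by 1.59-fold (-0.67, -0.72 to -0.61; -0.12 when scaled to *Gapdh*). Mean levels per kb were 54.0 ± 9.07 for *Dppa2* and 88.2 ± 28.3 for *Dppa4*. The ratio of *Dppa2* to *Dppa4* per kb was 0.698 in replicate 1 and 0.558 in replicate 2, and the counting intervals of these ratios did not overlap. The DNA around them held 4 other genes with enough counts within 1 Mb, of which *Cip2a* (-0.82) and *Morc1* (-0.60) were also lower in replicate 1, while *Gm7204* (-0.12) and *Dzip3* (0.10) lay near 0.

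*Dppa5a* (ENSMUSG00000060461, chr9:78367052-78368177, minus strand) encodes a small RNA-binding protein with a KH domain, a fold that grips single-stranded nucleic acid. It was the most abundant of the 8 by far. It gave 199860 counts in replicate 1 and 84835 in replicate 2, or 4601 and 2126 CPM. Replicate 1 was higher by 2.16-fold (log2 ratio 1.11, interval 1.10 to 1.13). Per kb it reached 7433 in replicate 1 and 3434 in replicate 2, which gave it ranks 2 and 6 among the protein-coding genes. Its level was 18.6 times that of *Pou5f1* in replicate 1 and 7.16 times in replicate 2. A KH gene beside it, *Ooep*, an oocyte-expressed gene, was also higher in replicate 1 (12918 and 7126 counts, log2 ratio 0.74). Over the 21 genes within 1 Mb of *Dppa5a* the median was 0.01. The trophectoderm markers moved in the same direction, with 5 of the 5 that had enough counts beyond 2-fold (14.2% of all genes were, in this direction), at log2 ratios of 1.02 to 2.90, while *Cdx2*, the defining factor of that lineage, had 6 and 1 counts. Their part in the *Dppa5a* difference was not tested.

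*Dppa5a* has several processed copies in the genome, and the shared letters are shown because they bear on how its reads can be assigned. The stretch below is coding bases 146 to 195 of its 354, on the minus strand of chr9:78367824-78367873 in GRCm38, and it is the word of 50 coding bases that the most other genes hold.
Dppa5a: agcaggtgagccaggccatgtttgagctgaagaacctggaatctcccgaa
The same 50 bases occur in transcripts of 6 other genes, which are *Dppa5b*, *Dppa5c*, *Gm15310*, *Gm6083*, *Gm6798* and *Pigp*. Of all words of 50 bases in the *Dppa5a* transcript, 38.6% occur in transcripts of other genes, and of those of 100 bases 3.08%. Of these 6 genes, *Dppa5b* and *Dppa5c* were not found by name in the counts, and the others had far fewer counts than *Dppa5a*. Such counts do not show how shared reads were assigned. *Gm6798* had 2742 in replicate 1 and 1051 in replicate 2, and *Gm6083* had 1141 and 414, so that replicate 1 was the higher library for these as well.

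*Rex2* (ENSMUSG00000067919, chr4:147021850-147060794, plus strand) is a zinc finger gene with a KRAB box, the domain through which such proteins recruit the corepressor TRIM28, and it is not to be confused with *Zfp42*, which encodes REX1. It was the lowest of the 8 and, with TMM scaling, the one whose libraries lay farthest apart, while scaled to *Gapdh* that was *Dppa5a* (1.66). It gave 1109 counts in replicate 1 and 2978 in replicate 2, or 25.5 and 74.6 CPM. Replicate 2 was higher by 2.92-fold (log2 ratio -1.55, interval -1.65 to -1.45), and still at -1.005 when scaled to *Gapdh*. Per kb it reached 5.87 in replicate 1 and 17.2 in replicate 2, or 0.0147 and 0.0358 of the *Pou5f1* level.

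The *Rex2* transcript is the least distinct of the 8. Its words of 50 bases occurred in transcripts of 34 other genes, 90.3% of them in at least 1, and its words of 100 bases were shared at 76.1%. *Zfp600* alone held 81.7% of the words of 50 bases and *Zfp980* 59.1%. Coding bases 152 to 201 of 2055 (chr4:147055675-147055724, GRCm38, plus strand) are printed because 10 other genes hold these 50 bases unchanged. The capitals mark the codons of a conserved run of the KRAB box, which starts with aspartate and ends with tyrosine.
Rex2: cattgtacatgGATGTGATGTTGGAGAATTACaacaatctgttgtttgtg
Among the 10 genes are *Zfp534*, *Zfp600*, *Zfp978*, *Zfp979*, *Zfp987* and *Zfp988*, which lie on both sides of *Rex2*. The counts of *Rex2* and these genes are therefore uncertain where reads have several equal hits, and the treatment of such reads in gene counting is not given in the sources used here. The other factors shared less. *Dppa4* shared 35.9% of its words of 50 bases, mainly with *Gm14058* (533 and 733 counts), *Dppa2* 29.1%, mainly with *Gm9788* (1503 and 1869), *Pou5f1* 15.9% and *Sall4* 4.86%. *Sox2* and *Utf1* shared none.

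**Figure D2:**
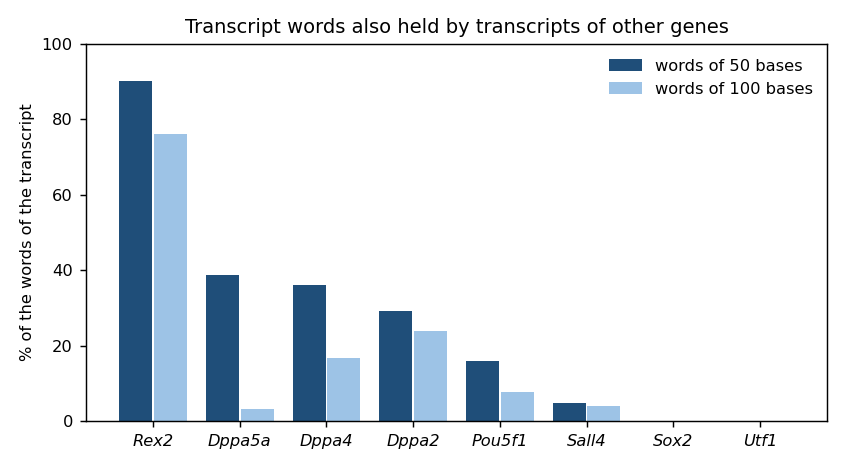
Percentage of the words of 50 bases (dark bars) and 100 bases (light bars) in the reference transcript of each factor that also occur in transcripts of other genes. *Rex2* reaches 90.3% and 76.1%, *Dppa5a* drops from 38.6% to 3.08%, and *Sox2* and *Utf1* are at 0.

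The zinc finger genes around *Rex2* moved with it. Within 1 Mb lay 15 other genes whose protein holds zinc fingers of the C2H2 type and that averaged 10 counts or more. All 15 were lower in replicate 1 with TMM scaling, 11 of them beyond 2-fold (7.14% of all genes were, in this direction), with a median log2 ratio of -1.12. Scaled to *Gapdh*, 14 of the 15 were lower, *Zfp979* being the exception, 5 were beyond 2-fold and the median was -0.58. The range ran from -2.05 for *Zfp991*, with 532 and 2031 counts, to -0.36 for *Zfp979*, with 6476 and 7621. *Zfp600* had 1452 and 4564 counts (-1.77), *Zfp981* 5303 and 16667 (-1.77) and *Zfp988* 5804 and 9489 (-0.83). By level per kb the highest was *Zfp978*, at 54.9 in replicate 1 and 144 in replicate 2. Since several of these genes share long words with *Rex2*, their ratios are not independent of each other.

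**Figure D3:**
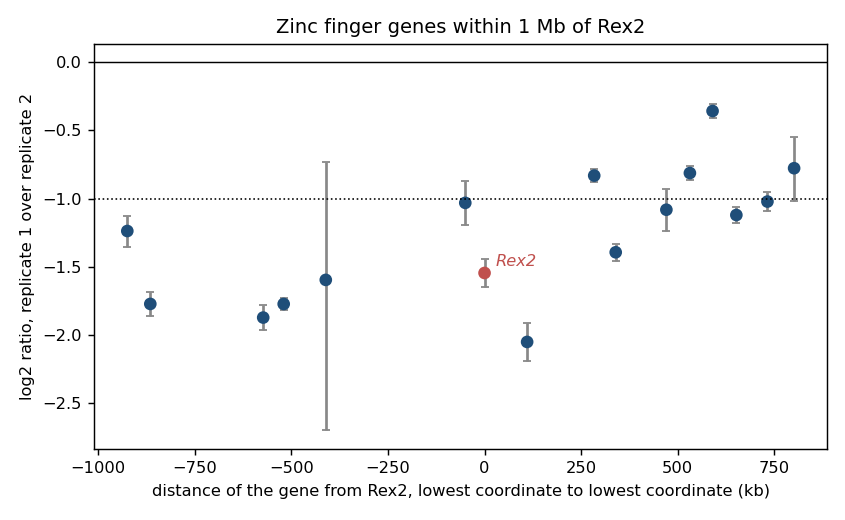
Log2 ratio of replicate 1 over replicate 2 for *Rex2* (red) and the 15 zinc finger genes within 1 Mb (blue) against the distance from *Rex2* in kb, with 95% intervals that cover counting error only. Every point lies below 0, from -0.36 to -2.05, and the dotted line marks 2-fold.

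The zinc finger genes were not alone in this. Genes of other kinds within 1 Mb, 37 in number, had a median of -0.90, and 33 of them were lower in replicate 1. They comprised 22 pseudogenes, with a median of -1.16, 10 protein-coding genes, with a median of -0.48, and 5 genes of other kinds, with a median of -0.76. At the end of the window away from the cluster lay genes on both sides of 0, such as *Mfn2* (-0.32) and *Plod1* (0.67). The 1238 genes of chromosome 4 had a median of 0.06, and the 334 other genes named Zfp with a number one of -0.15. For comparison, the median over neighbours was 0.26 for *Pou5f1* (105 genes), 0.15 for *Utf1* (31), 0.02 for *Sall4* (16) and *Sox2* (5), 0.01 for *Dppa5a* (21), -0.34 for *Dppa4* (5) and -0.60 for *Dppa2* (5). *Dppa2* and *Dppa4* share neighbours, and each is counted as a neighbour of the other. The median for *Dppa4* is the ratio of *Dppa2* itself. This look at neighbours was taken after the *Rex2* values were known.

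Promoters of the cluster are shown because its members moved together. RefSeq (GRCm38.p6) gave a promoter for 4 of the 8 factors, *Rex2* among them, and for 11 of its 15 zinc finger neighbours. The 250 bases before the start site follow for *Rex2* and for the pair of genes with the nearest copy of it, with the word GCAAGCAAGCAA in capitals. *Rex2* is at chr4:147021600-147021849 (plus strand), *Zfp600* at chr4:146156577-146156826 (plus strand) and *Zfp979* at chr4:147642509-147642758 (minus strand).
Rex2: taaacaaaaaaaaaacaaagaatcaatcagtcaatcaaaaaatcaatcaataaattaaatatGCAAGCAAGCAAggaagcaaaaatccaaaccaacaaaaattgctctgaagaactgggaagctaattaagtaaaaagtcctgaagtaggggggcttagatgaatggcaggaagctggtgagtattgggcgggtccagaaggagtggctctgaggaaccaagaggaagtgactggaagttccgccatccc
Zfp600: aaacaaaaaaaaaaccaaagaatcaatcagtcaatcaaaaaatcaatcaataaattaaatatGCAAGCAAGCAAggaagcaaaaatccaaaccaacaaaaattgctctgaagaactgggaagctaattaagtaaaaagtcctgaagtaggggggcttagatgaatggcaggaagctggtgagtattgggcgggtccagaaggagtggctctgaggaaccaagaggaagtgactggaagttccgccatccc
Zfp979: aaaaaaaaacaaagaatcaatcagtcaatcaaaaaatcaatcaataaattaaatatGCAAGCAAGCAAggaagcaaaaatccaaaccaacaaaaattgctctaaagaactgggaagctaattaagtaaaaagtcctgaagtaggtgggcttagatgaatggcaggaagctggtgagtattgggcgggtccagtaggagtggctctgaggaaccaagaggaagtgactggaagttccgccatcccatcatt
*Zfp600* was identical to *Rex2* in 99.6% of 250 aligned columns and *Zfp979* in 98.8% of 244. The word was searched on both strands, and 9 of these 11 neighbours held it as *Rex2* did, against 29 of all 32851 promoters (0.0883%). It was chosen from these promoters for being the most widely held, so that its presence is a description and names no factor. The log2 ratio was -1.77 for *Zfp600* and -0.36 for *Zfp979*. Any part of these promoters in the ratios was not tested.

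Read against all genes that averaged 10 counts or more, the differences between the libraries were of ordinary size for most of the factors. Against well-counted genes they were larger. With TMM scaling, 2 of the 8 passed 2-fold, the fold threshold of the study, as did 3803 (21.4%) of the 17788 genes that averaged 10 counts or more. *Dppa5a* was 1 of 2533 genes beyond 2-fold toward replicate 1 (14.2%), and *Rex2* was 1 of 1270 beyond it toward replicate 2 (7.14%). At 1.5-fold, *Sall4* and *Dppa4* joined them, which made 4 of 8 beside 39.6% of all genes. Neither did so under total counts (both -0.55), without scaling (-0.55 and -0.54) or scaled to *Gapdh* (-0.13 and -0.12), where *Sox2* passed (0.73) and *Utf1* lay at the threshold (0.58). Well-counted genes moved less. Of the 7401 genes that averaged 1000 counts or more, which include all 8 factors, 6.78% passed 2-fold. In that set a larger change than that of *Rex2* was seen in 1.77% of genes, and than that of *Dppa5a* in 5.11%. The shares were 17.2% for *Sall4*, 17.4% for *Dppa4* and 92.6% for *Utf1*. The median log2 ratio of the 8 was -0.30 with TMM scaling, beside 0.02 over all genes and -0.09 over the well-counted ones. The median size of the ratio, regardless of sign, was 0.505 for the 8. Over all genes it was 0.445, and over the well-counted ones 0.311. Other scalings moved the median of all genes to 0.14 (total counts), 0.14 (no scaling) and 0.56 (*Gapdh*), so that signs near 0 depend on the choice.

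**Figure D4:**
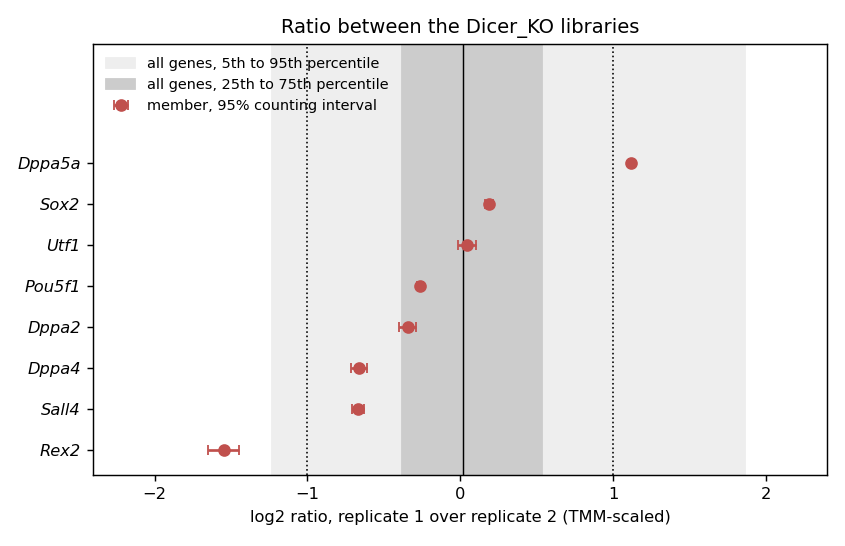
Log2 ratio of replicate 1 over replicate 2 for each factor (points, with 95% counting intervals), over the 25th to 75th percentile (dark band) and the 5th to 95th percentile (light band) of 17788 genes. *Rex2*, at -1.55, lies outside the light band, which runs from -1.23 to 1.86, and *Dppa5a*, *Sall4* and *Dppa4* lie between the bands.

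**Figure D5:**
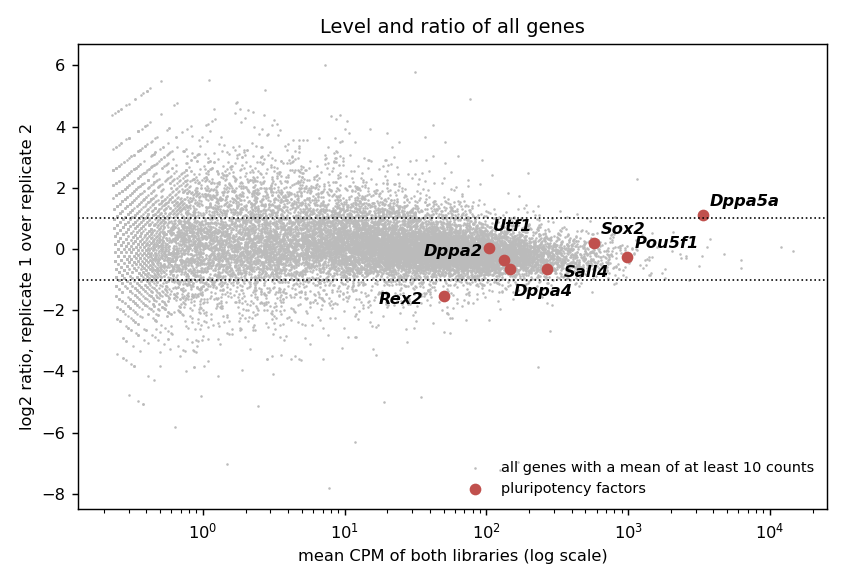
Mean CPM of both libraries on a log scale against the log2 ratio of replicate 1 over replicate 2, for all genes that averaged 10 counts or more (grey) and the 8 factors (red). Dotted lines mark 2-fold; *Dppa5a* lies above the upper line at 3363 CPM and *Rex2* below the lower line at 50.1 CPM.

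The spread of each gene was also estimated with edgeR, taking both libraries as replicates of 1 group. The biological coefficient of variation, an SD relative to the level, was 0.228 for *Sox2*, 0.231 for *Pou5f1* and *Utf1*, 0.238 for *Dppa2*, 0.258 for *Sall4* and 0.259 for *Dppa4*. It was 0.302 for *Dppa5a* and 0.377 for *Rex2*, the highest of the 8. The common value over all genes was 0.409. The trend at the level of each gene was lower. It was 0.243 for *Dppa5a*, 0.279 for *Rex2*, 0.245 for *Sall4* and 0.247 for *Dppa4*, and these genes lay above it. It was 0.244 for *Pou5f1* and *Sox2*, 0.250 for *Utf1* and 0.248 for *Dppa2*, and these genes lay below it. These estimates borrow strength from genes of like level, since only 2 libraries enter.

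Among the other listed factors of naive and primed cells, most were higher in replicate 2, as *Sall4* and *Dppa4* were. The list held 11 genes with a median log2 ratio of -0.85, beside 0.02 over all genes. Scaled to *Gapdh*, these medians were -0.31 and 0.56. With TMM scaling, 3 of the 11 passed 2-fold, all toward replicate 2, beside 7.14% of all genes in that direction. *Lin28a*, an RNA-binding protein that blocks let-7 maturation, had 603 and 1733 counts (-1.64). *Zscan10*, a zinc finger partner of OCT4 and SOX2, had 3336 and 6564 (-1.10). *Nanog*, the highest of the list per kb, went the other way, with 47522 and 26215 counts (0.74). *Trim28*, the partner of KRAB proteins such as REX2, had 43998 and 72757 (-0.85).

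With TMM scaling, known target genes of OCT4 and SOX2 lay on both sides of 0. The 7 had a median of 0.32 (0.86 when scaled to *Gapdh*). Only *Lefty1*, a Nodal inhibitor, passed 2-fold (21.4% of all genes did), with 9661 counts in replicate 1 and 2520 in replicate 2 (1.82). *Fgf4*, the classical composite-site gene, was at 0.35, *Fbxo15* at 0.32, *Zfp42* at -0.32 and *Spp1*, the most abundant per kb, at -0.48. None of the 11 subunit genes of NuRD, the complex that SALL4 recruits, passed 2-fold, beside 21.4% of all genes and 6.78% of the well-counted ones. Their median was -0.29 (0.25 when scaled to *Gapdh*). The most abundant subunit per kb was *Rbbp7*, with 13527 and 12769 counts. Of the 8 listed two-cell genes downstream of DPPA2 and DPPA4, 2 passed 2-fold toward replicate 1, *Duxf3* with 58 and 12 counts and *Tcstv3* with 429 and 165, beside 14.2% of all genes. The most abundant, *Zscan4c*, had 2671 and 1697 counts (0.53), and the median was 0.47.

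*Pou5f1*, *Sox2* and *Dppa5a* were the most abundant transcripts of their families per kb, and *Sall4* was not. *Pou5f1*, at 440 CPM per kb, headed the 15 POU genes, the next being *Pou2f1* at 11.2. Of the 12 POU genes with enough counts 3 passed 2-fold, and of the 15 SOX genes 5 did, beside 21.4% of all genes. *Pou6f1* (1.07) and *Pou2f3* (1.67) were beyond 2-fold toward replicate 1 and *Pou4f2*, a neuronal factor, toward replicate 2 with 31 and 364 counts. *Sox2*, at 278 CPM per kb, headed the 19 SOX genes, the next being *Sox15* at 16.4. *Sox15*, with 912 and 292 counts (1.52), *Sox8* (1.56) and *Sox10* (3.17) were higher in replicate 1, and *Sox11* (-1.58) and *Sox4* (-1.43) in replicate 2. In the SALL family *Sall1*, at 77.0 CPM per kb, was above *Sall4* in both libraries, with 16025 and 17645 counts, and *Sall3*, with 478 and 1635, had the lowest ratio (-1.89). Among the DPPA genes, *Dppa3* (STELLA) had 375 and 428 counts and *Dppa1* only 6 and 1.

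Of the 7 genes commonly used as references, only *Hprt* passed 2-fold (21.4% of all genes did), at 17 and 33 counts, or 0.391 and 0.827 CPM. At that level *Hprt* is not usable as a reference in these cells, and its counting interval ran from -2.02 to -0.19. *Actb* was the most abundant, with 58374 and 64246. *Gapdh*, to which the study normalised its RT-qPCR, had 1329 and 1778 counts, or 30.6 and 44.5 CPM. Its longest annotated transcript holds 3240 words of 50 bases, of which 27.8% occur in transcripts of 218 other genes. Shorter *Gapdh* transcripts were not looked up. The *Gapdh* counts, and the scaling to them, are therefore uncertain where reads have several equal hits. Per kb *Gapdh* was at only 9.09 CPM (rank 5310), beside 551 CPM for *Actb* (rank 23). Whether reads of *Gapdh* were lost to genes that share its words was not tested. These counts therefore do not describe the *Gapdh* transcript that the RT-qPCR of the study measured. The log2 ratio of *Gapdh* was -0.54 with TMM scaling, which exceeded in size those of *Utf1*, *Sox2*, *Pou5f1* and *Dppa2*.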

How the data were processed

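PolyA-selected RNA of 2 *Dicer*_KO mESC libraries was sequenced with a reverse-stranded protocol. The authors trimmed reads with Trimmomatic, aligned them with STAR (2.4.2a) to mm10 (GRCm38) and counted them per Ensembl gene with featureCounts (1.4.5-p1), ignoring reads that fell where genes overlap. The authors deposited raw counts for each gene, with no normalization. Both samples form 1 group by their genotype label.

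Counts were scaled by TMM (edgeR 4.0.16, R 4.3.3; factors 1.04 and 0.960). CPM intervals are exact Poisson and ratio intervals exact conditional binomial (scipy 1.17.1), at 95%, and cover counting error only. Log2 ratios used a pseudocount of 1. The background was all 17788 genes that averaged 10 counts or more. Dispersion came from edgeR with an intercept only. No p-value was computed, since no groups could be compared. Symbols, positions and exon lengths came from GENCODE M21 (GRCm38), which matched 42548 of 43629 identifiers. Words of 50 and 100 bases were looked up in its transcripts on both strands. Ratio and dispersion steps were tested on simulated data.

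Members and lists were chosen with earlier results of these data known. Named were, by rule, the members, *Dicer1*, *Gapdh*, each list's genes beyond 2-fold and its most abundant gene per kb, the genes next to *Pou5f1* in level and genes overlapping a member. Not every such gene is reported here. Other named genes, such as copies, neighbours and further list members, were chosen after their values were seen. Alternatives were other scalings (DESeq2 1.42.0 size factors, total counts, none, *Gapdh*), a pseudocount of 0.1, other count minimums, a 1.5-fold threshold, transcript length and leaving out each replicate.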

Additional observations from a re-analysis of the deposited data

How the results depend on the processing

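No paired analysis was possible because there is only 1 group. Leaving out a replicate leaves no ratio between libraries, so it was run for levels and ratios within a library. *Dppa5a* and *Rex2* stayed past 2-fold with the same sign under every scaling and pseudocount tried, and a count minimum cannot move a member's own ratio. Under total counts the log2 ratios were -0.14 (*Pou5f1*), 0.31 (*Sox2*), -0.55 (*Sall4*), 0.16 (*Utf1*), -0.23 (*Dppa2*), -0.55 (*Dppa4*), 1.23 (*Dppa5a*) and -1.43 (*Rex2*). With no scaling they were -0.14, 0.31, -0.55, 0.17, -0.22, -0.54, 1.24 and -1.42 in that order, and scaled to *Gapdh* 0.28, 0.73, -0.13, 0.58, 0.20, -0.12, 1.66 and -1.005, a shift that comes from the low *Gapdh* ratio itself. *Gapdh* also moved the list medians to -0.31 (other factors), 0.86 (OCT4-SOX2 targets), 0.25 (NuRD), 1.01 (two-cell), 1.09 (KH), 0.077 (SALL), 0.28 (reference), 0.66 (mESC), 2.94 (trophectoderm), 0.36 (neuroectoderm), 1.19 (mesoderm), 0.68 (fibroblast), 0.20 (POU), 0.73 (SOX), 0.21 (DPPA) and -0.58 (zinc fingers near *Rex2*).

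Genes beyond 2-fold numbered 9002 with no filter, 2324 when the mean had to reach 50 counts and 502 at 1000, a minimum chosen after seeing the data. At 1.5-fold 7045 genes and 4 factors passed. The fibroblast median was 0.64 with no filter. Per kb of the longest coding transcript *Pou5f1* reached 726 CPM, and the mean ratios were 2.63 (*Pou5f1* over *Sox2*), 14.2 (*Pou5f1* over *Sall4*) and 0.119 (*Utf1* over *Pou5f1*). With 1 replicate left out, the summed level ran from 4574 to 6680 CPM, *Dppa5a* over *Pou5f1* from 7.16 to 18.6 and *Rex2* over *Pou5f1* from 0.0147 to 0.0358. Depth does not limit the 8 factors, each of which had over 1000 counts per library. What limits them is 1 library per passage, the absence of WT libraries here and, for *Rex2*, *Dppa5a*, *Dppa4* and *Dppa2*, reads that other genes could share.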
